A study of Mus musculus with 6 samples.

Results

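Semaphorins, ephrins, slits and netrins, with their receptors, were compared between sciatic nerves of Actl6a conditional knockout (cKO) and wild-type (WT) mice. Members were the rows of the count table whose gene symbol belongs to the semaphorin, plexin, neuropilin, ephrin, Eph receptor, slit, roundabout or netrin families, or to the netrin receptors Unc5 and Dcc. There were 71 such rows of 54838. Of these, 35 encode ligands, 33 encode receptors and 3 are antisense transcripts at the Plxna4 locus. The 3 cKO libraries came from C57 Bl mice of genotype CnpCre Actl6a fl/fl and the 3 WT libraries from C57 Bl mice labelled WT, all at postnatal day 3. Actl6a encodes an actin-related subunit of BAF chromatin remodelling complexes. Cre is named after Cnp, a gene active in myelinating glia, and which cells of these nerves recombined was not measured here. The labels do not say whether WT mice carried floxed alleles or Cre, nor whether a library pooled several animals, so p-values cover only the differences among replicate libraries, part of which may be technical.

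Guidance ligands act on growth cones and on migrating cells. Semaphorins signal through plexins, and most secreted class 3 semaphorins also need a neuropilin. Ephrins are held in the membrane and signal in both directions with Eph receptor tyrosine kinases. Slits act through roundabout receptors, and netrins through Dcc and the Unc5 receptors. In nerve, these cues are known for axon growth and for the sorting of Schwann cells and blood vessels after injury.

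Libraries held 31404107 to 36760296 counts. CPM here means counts scaled to library size with TMM factors, and levels of different genes are compared only per kilobase of exon. Actl6a itself had 42.4, 47.6 and 41.5 CPM in the cKO libraries, against 48.6, 53.3 and 46.2 CPM in the WT libraries. Its log2 fold change was -0.17 (95% interval -0.40 to 0.054, edgeR adjusted p = 0.243), counted over all exons in whole nerve, so the genotype labels were not checked by it. Markers of the Schwann lineage summed to 3058 to 5391 CPM in cKO and 22003 to 25511 CPM in WT libraries, with 5 of 12 lower and 1 higher. Macrophage markers summed to 1166 to 1530.5 CPM in cKO and 687 to 785 CPM in WT libraries, with 11 of 13 higher. Fibroblast markers summed to 35868 to 46025 CPM in cKO and 35586 to 35846 CPM in WT libraries, with 4 of 12 higher. Skeletal muscle markers summed to 76682 CPM in cKO replicate 2, against 4197 to 5974 CPM in the other 5 libraries, and 0 of 15 were called by edgeR, with 1 at an unadjusted p under 0.05 and 1 called by DESeq2. Perineurial markers had 2 higher and 1 lower of 6, and neuron markers 3 higher of 11. Mast cell, T cell and neutrophil markers had 4 higher of 8 tested, and erythroid markers 4 of 7. Endothelial, adipocyte, and keratinocyte and cartilage markers had 1 higher each, of 12, 9 and 6 tested, and pericyte and smooth muscle markers 1 lower of 10. No marker was at 0 in all libraries. The part of these cell types in the member results was not tested.

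Of the 71 members, 65 passed the low-count filter. At an adjusted p under 0.05, 9 were called higher and 11 lower in cKO nerves, and 45 were not called. Over all 18775 genes tested, 18.8% were called, 8.55% higher and 10.3% lower. A difference of at least 2-fold was called for 3 members that rose and 10 that fell, against 7.26% of all genes in either direction. Unc5d, among the 9 called higher and among these 3, passed the low-count filter through the cKO group. The CPM of the 3 cKO and 3 WT libraries did not overlap for 19 tested members that were higher and 22 that were lower, against 42.7% of all genes. The median log2 fold change was -0.07 over the tested members and 0.04 over all genes. In whole nerve, fewer cells of a type and less RNA per cell cannot be told apart.

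The calls are given by family beside the 18.8% called over all genes. Among semaphorins 11 of 20 were called (55%), 4 higher and 7 lower. Among plexins 2 of 9 rose and 2 fell (44.4% called), and neither neuropilin was called. Among ephrins and Eph receptors 1 of 20 tested was called (5%). Slits and roundabouts had 1 call of 5 tested (20%), near the share of all genes, and netrins with their receptors 3 of 8 (37.5%). Those 3 were Ntn4, Ntn5 and Unc5d. Ntn5 and Unc5d were at very low levels, the count of Ntn5 is uncertain, and Unc5d passed the low-count filter through the cKO group. The 37.5% therefore rests mostly on weak calls. The difference between families was not tested. Without cKO replicate 2, 17 members were called higher and 18 lower, including 15 members not called with all libraries, and 35.7% of all genes were called. Values without that library, given below for single members, are to be read beside this 35.7%. DESeq2 added 8 members to the 20 calls: Sema3a, Nrp2, Plxnb1, Plxnb2, Epha2, Epha7, Slit2 and Robo1. Over all genes DESeq2 also called more, 2254 higher and 2353 lower of 18575 with an adjusted p, against 1605 and 1929 by edgeR.

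**Figure D1:**
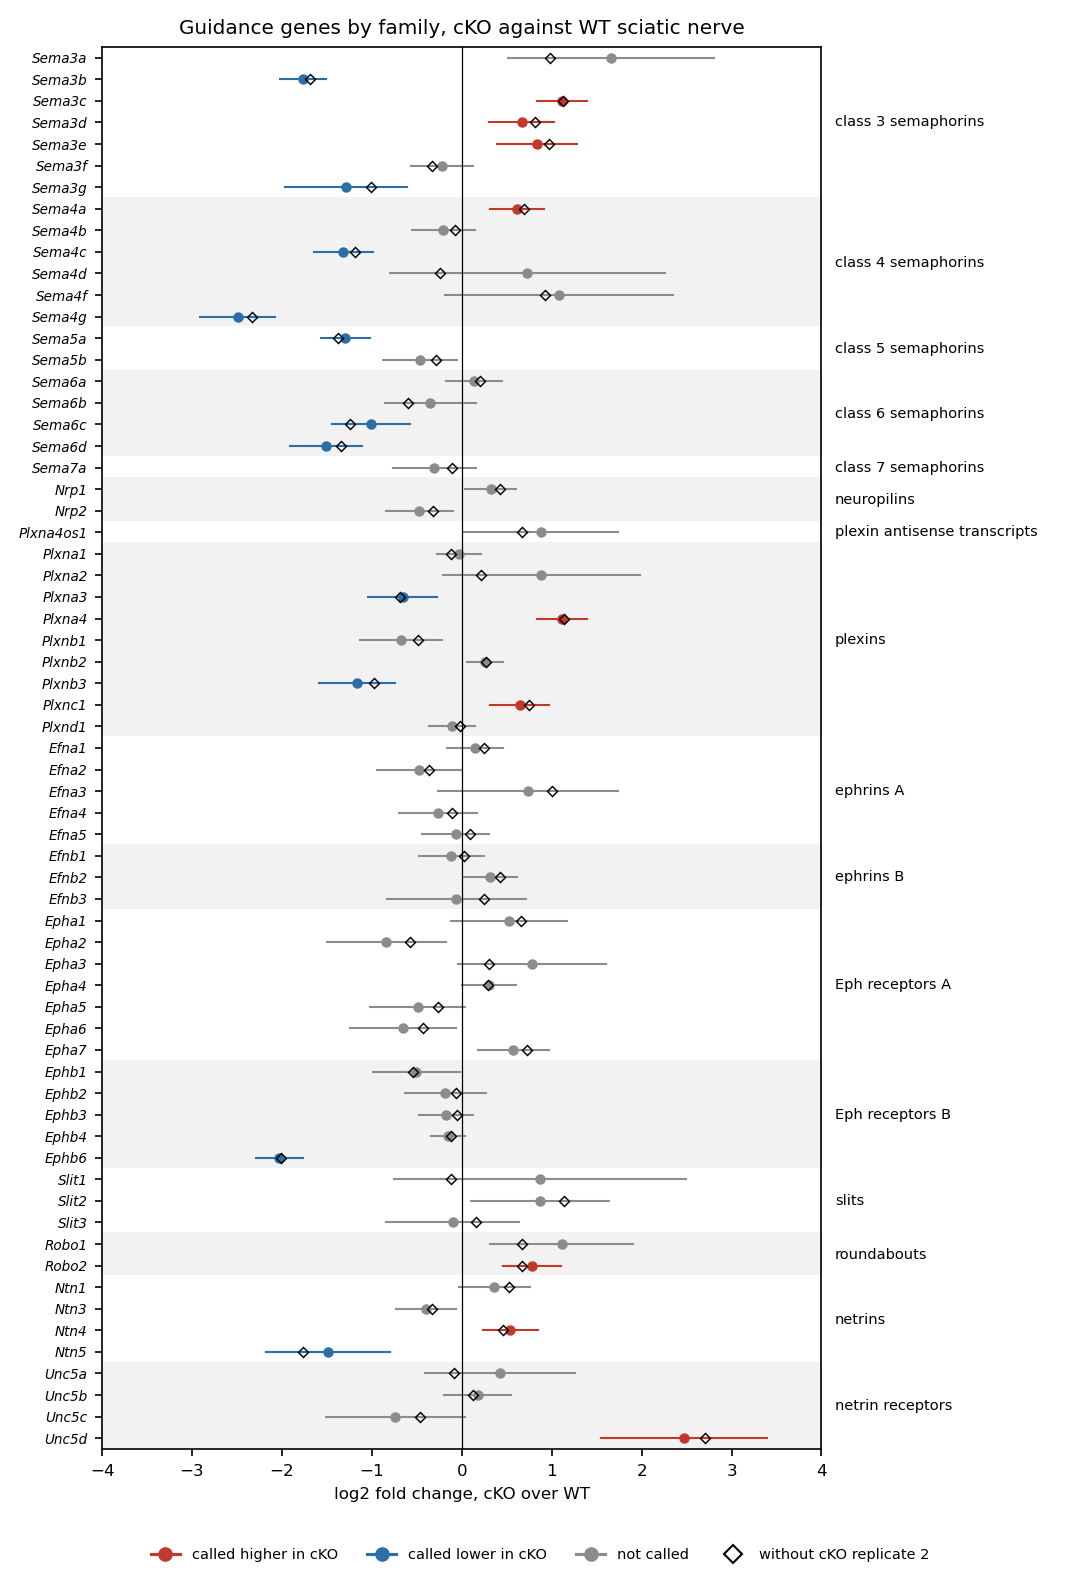
Log2 fold change (cKO over WT, horizontal axis) of each tested member with its 95% interval, grouped by family, with called members in colour and open diamonds for the value without cKO replicate 2. Semaphorins run from -2.49 for Sema4g to 1.66 for Sema3a, and Ephb6 is the called member among the ephrins and Eph receptors.

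Class 3 semaphorins, the secreted ligands, split by gene. Sema3c, a ligand of both neuropilins known for outflow tract and vessel development, had the highest class 3 level per kilobase over the 6 libraries (ENSMUSG00000028780, chromosome 5, 17574281 to 17730268, GRCm38). It had 533, 547 and 578 CPM in the cKO libraries, against 238, 292 and 235 CPM in the WT libraries. Every cKO library lay above every WT library, and Sema3c rose 2.17-fold (log2 fold change 1.12 ± 0.12 SE, edgeR adjusted p = 0.0019). Sema3b, a growth cone repellent (ENSMUSG00000057969, chromosome 9, 107597674 to 107609229), ran the other way, with 129, 106 and 127 CPM in the cKO libraries, against 419.9, 395 and 419.6 CPM in the WT libraries. The groups did not overlap, and Sema3b fell 3.41-fold (log2 fold change -1.77 ± 0.11 SE, edgeR adjusted p = 0.00036). Both calls held when any library was left out.

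Sema3c made up most of the class 3 signal in cKO nerves and Sema3b most of it in WT nerves. As a share of the summed class 3 CPM per kilobase, Sema3c was 64.6% ± 2.18 in cKO and 25.6% ± 2.79 in WT nerves (SD, n = 3 each). The share of Sema3b was 21.1% ± 1.58 in cKO and 61.8% ± 3.10 in WT nerves (SD, n = 3 each). The ratio of Sema3c to Sema3b per kilobase was 3.08 ± 0.338 in cKO and 0.416 ± 0.0679 in WT nerves (SD, n = 3 each), beside a class total of 119.8 ± 5.54 CPM per kilobase in cKO and 139 ± 2.29 in WT nerves (SD, n = 3 each). These shares restate the gene values and were not tested.

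**Figure D2:**
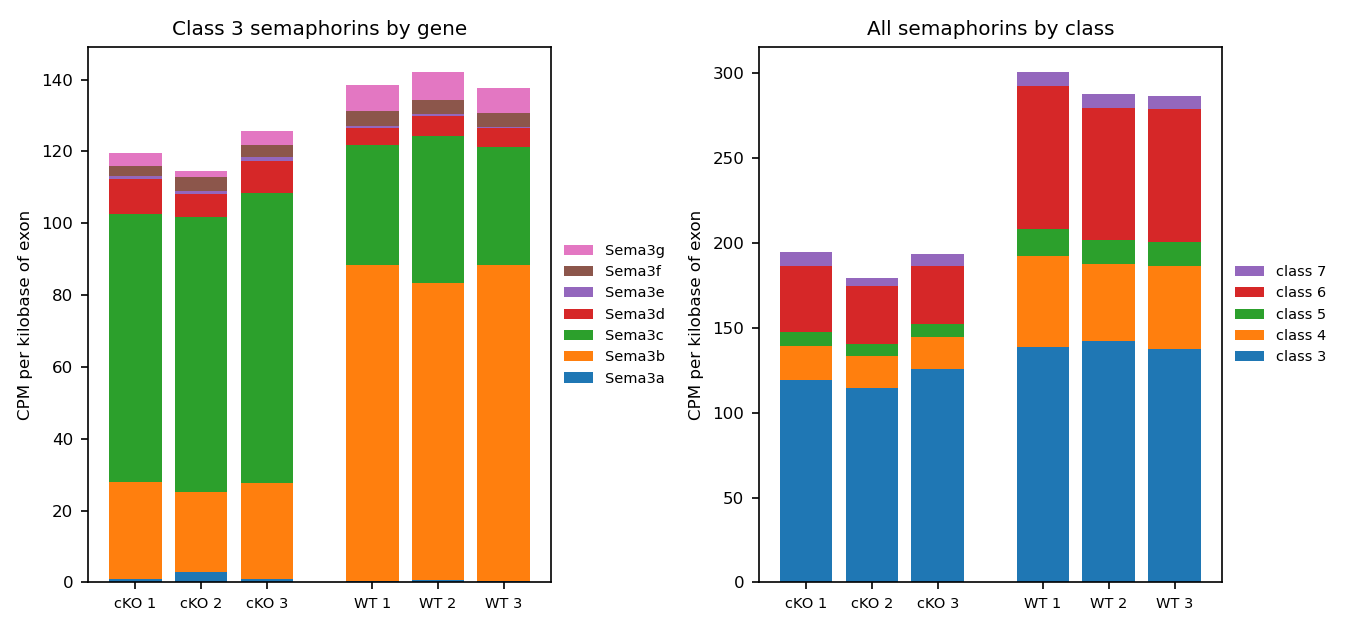
Stacked bars of CPM per kilobase of exon in each cKO and WT library, for the class 3 semaphorins by gene (left) and for all semaphorins by class (right). Sema3c is the largest segment of class 3 in each cKO library and Sema3b in each WT library, and all semaphorins averaged 189.1 in cKO and 291.8 in WT nerves.

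Sema3d and Sema3e also rose. Sema3d, a guidance cue for neural crest and endothelial cells, had 82.8, 56.5 and 76.6 CPM in the cKO libraries, against 41.8, 49.3 and 44.8 CPM in the WT libraries. All cKO values were above all WT values, and the increase was 1.59-fold (log2 fold change 0.67 ± 0.15 SE, edgeR adjusted p = 0.026). Sema3e, which binds Plxnd1 directly without a neuropilin, had 7.69, 5.89 and 8.11 CPM in the cKO libraries, against 4.21, 4.55 and 3.39 CPM in the WT libraries. Its groups were likewise apart (log2 fold change 0.84 ± 0.19 SE, edgeR adjusted p = 0.0252). Leaving out any library other than cKO replicate 2 ended both calls. Sema3g, known from blood vessels, had 16.04, 7.75 and 16.9 CPM in the cKO libraries, against 32.9, 34.4 and 32.02 CPM in the WT libraries. Its groups were apart, with cKO replicate 2 lowest (log2 fold change -1.29 ± 0.28 SE, edgeR adjusted p = 0.0258), and leaving out any WT library ended the call.

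Sema3a and Sema3f were not called. Sema3a, the classical growth cone collapsing ligand, had 13.3, 38.8 and 14.4 CPM in the cKO libraries, against 5.81, 8.36 and 6.90 CPM in the WT libraries. All cKO libraries were above WT, with cKO replicate 2 far above the other cKO libraries (log2 fold change 1.66, 95% interval 0.51 to 2.80, edgeR adjusted p = 0.0594). Without that library, which also had the high muscle marker sum, the log2 fold change was 0.98 with an adjusted p of 0.000193. Sema3f, a repellent acting through Nrp2, had overlapping groups at 14.5, 20.4 and 18.4 CPM in the cKO libraries, against 22.5, 20.4 and 19.3 CPM in the WT libraries (log2 fold change -0.22, 95% interval -0.57 to 0.13, edgeR adjusted p = 0.318). Without cKO replicate 2 its value was -0.33 with an adjusted p of 0.0478. No other fit that left out 1 library called Sema3f (edgeR adjusted p up to 0.602).

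The 250 bases upstream of the RefSeq start are shown for Sema3c, Sema3d and Sema3e, the class 3 genes that rose on chromosome 5, and for Sema4g and Ephb6, the members with the largest falls that have a window. They come from RefSeq, GRCm38.p6, plus strand: Sema3c at chr5:17574566-17574815, Sema3d at chr5:12382916-12383165, Sema3e at chr5:14025026-14025275, Sema4g at chr19:44989094-44989343 and Ephb6 at chr6:41605261-41605510. Capitals mark matches on either strand to GCGNGGGCG, a binding motif of EGR factors, or to ACAAAG, a core motif of SOX factors.
Sema3c: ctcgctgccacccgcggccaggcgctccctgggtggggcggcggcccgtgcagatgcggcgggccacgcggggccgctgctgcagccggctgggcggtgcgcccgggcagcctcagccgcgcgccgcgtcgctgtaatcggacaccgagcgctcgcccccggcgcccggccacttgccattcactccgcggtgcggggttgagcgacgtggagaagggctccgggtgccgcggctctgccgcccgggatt
Sema3d: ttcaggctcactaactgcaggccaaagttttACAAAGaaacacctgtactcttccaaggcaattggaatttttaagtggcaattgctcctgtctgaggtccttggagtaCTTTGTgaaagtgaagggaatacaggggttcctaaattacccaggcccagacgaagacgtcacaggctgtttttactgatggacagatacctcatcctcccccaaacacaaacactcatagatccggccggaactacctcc
Sema3e: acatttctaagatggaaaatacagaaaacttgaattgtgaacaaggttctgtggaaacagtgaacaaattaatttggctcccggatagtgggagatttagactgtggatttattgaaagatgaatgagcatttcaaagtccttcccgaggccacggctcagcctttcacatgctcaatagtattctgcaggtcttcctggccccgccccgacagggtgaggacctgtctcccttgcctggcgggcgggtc
Sema4g: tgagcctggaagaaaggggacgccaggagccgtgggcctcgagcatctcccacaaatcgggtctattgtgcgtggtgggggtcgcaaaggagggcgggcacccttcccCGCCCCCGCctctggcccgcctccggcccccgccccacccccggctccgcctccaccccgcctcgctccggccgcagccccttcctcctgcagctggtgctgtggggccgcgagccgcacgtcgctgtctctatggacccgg
Ephb6: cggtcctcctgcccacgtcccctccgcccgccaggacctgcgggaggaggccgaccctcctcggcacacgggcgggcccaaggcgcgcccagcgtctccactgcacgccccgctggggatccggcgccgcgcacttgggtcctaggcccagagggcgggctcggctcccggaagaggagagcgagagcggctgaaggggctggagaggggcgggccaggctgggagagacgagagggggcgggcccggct
Sema3d has 2 SOX matches and Sema4g has 1 EGR match, and the other windows have none. Windows of 300 bases around the start were matched for 58 members (74 windows), without Sema3b, Plxna4 and Unc5d among the called. Motifs were counted only in the 250 upstream bases of each window, for members and for all windows. The EGR motif was in 12 of these 74 windows (16.2%) and in 4.70% of all 32851 windows. By call, it was in 1 of 12 windows (8.33%) of members called higher, 2 of 13 (15.4%) of those called lower and 8 of 46 (17.4%) of those not called. The SOX motif was in 7 (9.46%) and in 16.5% of all windows. It was in 1 of 12 windows of members called higher, 2 of 13 of those lower and 4 of 46 of those not called. Some genes have several windows, and the 12 windows of members called higher belong to 7 genes. Base composition differs between windows, from 46.8% GC for Sema3d to 78.4% for Sema3c among those shown, and was not matched. A match is a description of the letters.

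Class 4 semaphorins are membrane ligands, several of them for B plexins. Sema4g, a ligand of Plxnb2 (ENSMUSG00000025207, chromosome 19, 44989101 to 45003397), had 22.8, 14.5 and 20.03 CPM in the cKO libraries, against 119, 98.8 and 106 CPM in the WT libraries. The groups were far apart, and Sema4g fell 5.63-fold (log2 fold change -2.49 ± 0.18 SE, edgeR adjusted p = 0.00058). Sema4c, another Plxnb2 ligand (ENSMUSG00000026121, chromosome 1, 36548639 to 36558349), had 46.00, 33.02 and 43.9 CPM in the cKO libraries, against 110.0, 96.02 and 100.3 CPM in the WT libraries. It fell 2.49-fold with no overlap (log2 fold change -1.32 ± 0.14 SE, edgeR adjusted p = 0.0019), and 7.27% of its exonic bases overlap D430040D24Rik on the opposite strand, which counting without strand does not separate. Both calls held when any library was left out.

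Sema4a, known from immune cells and retina, had 9.87, 8.25 and 9.37 CPM in the cKO libraries, against 6.05, 6.14 and 5.77 CPM in the WT libraries. Every cKO library was above WT (log2 fold change 0.61 ± 0.13 SE, edgeR adjusted p = 0.0184), and dropping cKO replicate 3 or a WT library ended the call. Sema4d, the ligand of Plxnb1, was not called. It had 9.996, 43.2 and 12.2 CPM in the cKO libraries, against 14.9, 11.5 and 12.97 CPM in the WT libraries, so that cKO replicate 2 alone stood above all WT libraries (log2 fold change 0.73, 95% interval -0.80 to 2.26, edgeR adjusted p = 0.432). Without it the log2 fold change was -0.24 with an adjusted p of 0.199. Sema4b and Sema4f were not called, with log2 fold changes of -0.20 and 1.08.

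Class 5 and class 6 semaphorins, which are transmembrane proteins, had calls in 1 direction. Sema5a, a cue with thrombospondin repeats (ENSMUSG00000022231, chromosome 15, 32244810 to 32696341), had 74.2, 83.9 and 67.4 CPM in the cKO libraries, against 200.4, 171 and 182 CPM in the WT libraries. All cKO libraries were below all WT libraries, and Sema5a fell 2.45-fold (log2 fold change -1.29 ± 0.11 SE, edgeR adjusted p = 0.00109). Sema6d, a ligand of Plxna1 (ENSMUSG00000027200, chromosome 2, 124089969 to 124667770), had 245, 158 and 216 CPM in the cKO libraries, against 618, 582 and 561 CPM in the WT libraries. It fell 2.85-fold, with cKO replicate 2 lowest and no overlap (log2 fold change -1.51 ± 0.17 SE, edgeR adjusted p = 0.00221). Sema6c had 41.7, 61.5 and 38.3 CPM in the cKO libraries, against 100.3, 87.1 and 97.9 CPM in the WT libraries. This fall (log2 fold change -1.01 ± 0.18 SE, edgeR adjusted p = 0.0125) was not called without WT replicate 1 or 3. Sema5b, Sema6a and Sema6b had log2 fold changes of -0.46, 0.14 and -0.35 and were not called. Sema5b and Sema6b were called without cKO replicate 2, at -0.29 with an adjusted p of 0.0244 and at -0.60 with an adjusted p of 0.00383. Class 6 summed to 35.6 ± 2.84 CPM per kilobase in cKO and 79.98 ± 3.56 in WT nerves (SD, n = 3 each).

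Sema7a, a GPI-anchored ligand of Plxnc1 and integrins, had 26.8, 15.4 and 23.6 CPM in the cKO libraries, against 26.96, 27.7 and 26.95 CPM in the WT libraries. The cKO libraries lay below WT, by little in replicate 1, and no difference was called (log2 fold change -0.31, 95% interval -0.77 to 0.15, edgeR adjusted p = 0.298). All semaphorins together summed to 189 ± 8.58 CPM per kilobase in cKO and 292 ± 7.52 in WT nerves (SD, n = 3 each). Each cKO total was below each WT total. The sum of the Schwann lineage markers was also lower in every cKO library, with 5 of 12 markers called lower and 1 higher. Its part in the semaphorin totals was not tested.

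**Figure D3:**
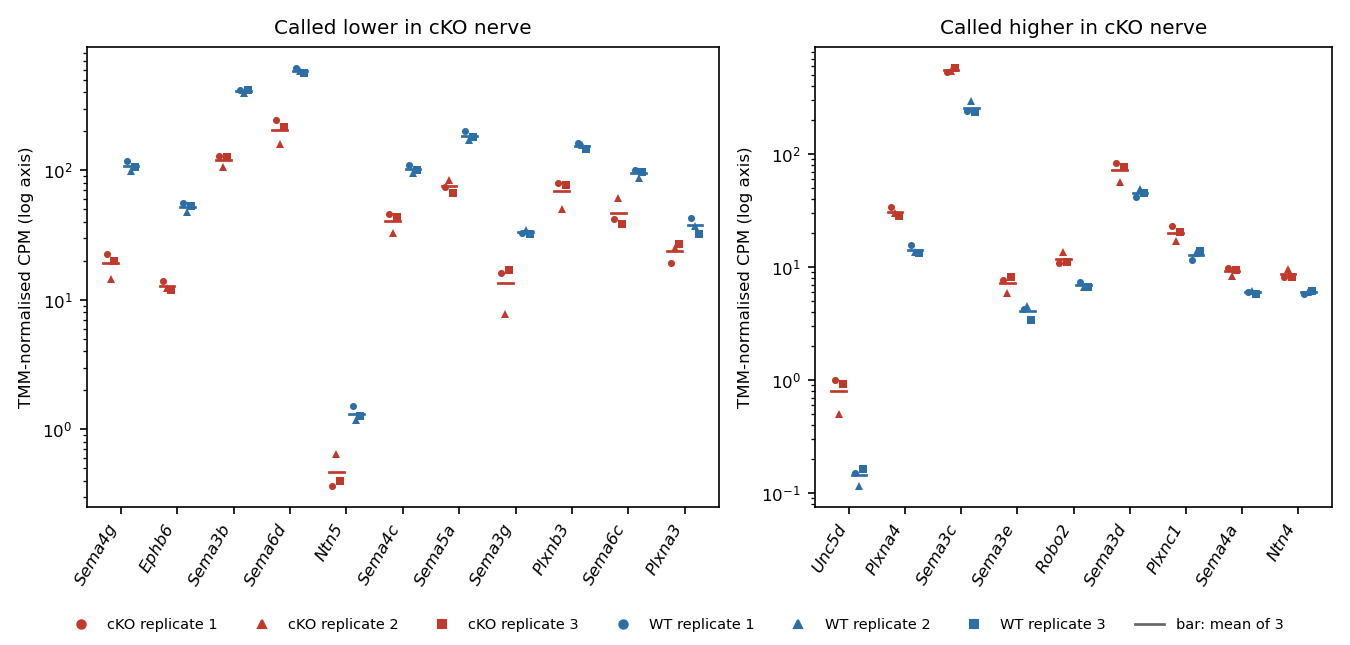
TMM-normalised CPM (log axis) of the members called lower (left) and higher (right) in each cKO and WT library, with bars at the mean of 3. In every called member the 3 cKO libraries lie on one side of the 3 WT libraries, as in 42.7% of all genes. The members shown were called from these same libraries.

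The neuropilins, co-receptors for class 3 semaphorins and VEGF, were not called by edgeR, although 2 of 2 had an unadjusted p under 0.05 and DESeq2 called Nrp2. Nrp1 had 144, 118 and 157 CPM in the cKO libraries, against 113, 114 and 108 CPM in the WT libraries. Nrp2, the higher per kilobase in WT nerves, had 153, 110.0 and 162 CPM in the cKO libraries, against 211, 195 and 183 CPM in the WT libraries. Neither pair of groups overlapped, and neither difference was called (Nrp1 log2 fold change 0.32, 95% interval 0.040 to 0.60, edgeR adjusted p = 0.106). For Nrp2 the values were log2 fold change -0.47, 95% interval -0.84 to -0.10, edgeR adjusted p = 0.0792. Without cKO replicate 2 both were called, Nrp1 at 0.43 with an adjusted p of 0.00064 and Nrp2 at -0.32 with an adjusted p of 0.00922. The ratio of Nrp1 to Nrp2 per kilobase was 1.20 ± 0.0831 in cKO and 0.690 ± 0.0360 in WT nerves (SD, n = 3 each), described without a test.

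Plexins changed in both directions. Plxna4, a receptor for Sema3a with Nrp1 and for class 6 semaphorins (ENSMUSG00000029765, chromosome 6, 32144268 to 32588192), had 33.97, 30.2 and 28.1 CPM in the cKO libraries, against 15.7, 13.5 and 13.3 CPM in the WT libraries. Every cKO library was above WT, and Plxna4 rose 2.17-fold (log2 fold change 1.12 ± 0.12 SE, edgeR adjusted p = 0.0019). Of its antisense transcripts, Plxna4os1 was tested, with 0.425, 0.646 and 0.429 CPM in the cKO libraries, against 0.181, 0.346 and 0.274 CPM in the WT libraries and no call (log2 fold change 0.88, 95% interval 0.024 to 1.74, edgeR adjusted p = 0.136). Its raw counts were 14, 18 and 15 in cKO and 6, 12 and 10 in WT libraries. Plxna4os1 lies within the span of Plxna4 on the opposite strand, and counting without strand does not separate unspliced Plxna4 reads from it. Plxnc1, the Sema7a receptor, had 22.8, 17.1 and 20.4 CPM in the cKO libraries, against 11.6, 13.4 and 13.7 CPM in the WT libraries. Its groups were apart (log2 fold change 0.64 ± 0.14 SE, edgeR adjusted p = 0.0222), and it was no longer called after dropping cKO replicate 3 or a WT library.

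Plxnb3, a receptor reported for Sema5a (ENSMUSG00000031385, chromosome X, 73757090 to 73772514), had 79.1, 50.3 and 77.3 CPM in the cKO libraries, against 163, 156 and 145 CPM in the WT libraries. It fell 2.24-fold with cKO replicate 2 lowest and no overlap (log2 fold change -1.16 ± 0.18 SE, edgeR adjusted p = 0.00656). Plxna3, which pairs with Nrp2 for Sema3f, had 19.4, 24.9 and 27.2 CPM in the cKO libraries, against 43.02, 37.4 and 32.5 CPM in the WT libraries. Its groups were apart by a narrow margin (log2 fold change -0.66 ± 0.16 SE, edgeR adjusted p = 0.0326), and leaving out cKO replicate 1 or any WT library ended the call. Plxnb1, the Sema4d receptor, just missed the threshold, with 73.2, 43.97 and 65.4 CPM in the cKO libraries, against 107, 88.8 and 96.1 CPM in the WT libraries. Its groups did not overlap (log2 fold change -0.68, 95% interval -1.13 to -0.23, edgeR adjusted p = 0.0504), and without cKO replicate 2 the value was -0.49 with an adjusted p of 0.00121.

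Plxnd1, the Sema3e receptor, was the plexin highest per kilobase, with 197, 163 and 196 CPM in the cKO libraries, against 214, 193 and 194 CPM in the WT libraries. Its groups overlapped (log2 fold change -0.11, 95% interval -0.36 to 0.14, edgeR adjusted p = 0.493). Plxnb2, the receptor of Sema4c and Sema4g, had 153, 155 and 168 CPM in the cKO libraries, against 139, 132 and 128 CPM in the WT libraries. All its cKO libraries were above WT, and it was not called (log2 fold change 0.26, 95% interval 0.059 to 0.45, edgeR adjusted p = 0.0754). Leaving out cKO replicate 2, it was called higher, at 0.27 with an adjusted p of 0.0142. Plxna1 and Plxna2 had log2 fold changes of -0.029 and 0.88 and were not called. Plxna2 was highest in cKO replicate 2, and without that library its value was 0.22 with an adjusted p of 0.166. For the known partners Sema5a and Plxnb3, ligand and receptor were both lower in cKO nerves. For Sema4c and Sema4g with Plxnb2, the ligands fell, while the receptor was higher in each cKO library than in any WT library and not called with all 6 libraries.

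Ephrins, the ligands of Eph receptors, were not called in any of 8 cases by edgeR or by DESeq2, with 2 of them (Efna2 and Efnb2) at an unadjusted p under 0.05 in edgeR. Efnb1, a transmembrane ephrin and the highest ephrin B per kilobase, had 78.5, 62.4 and 94.9 CPM in the cKO libraries, against 90.6, 80.6 and 84.1 CPM in the WT libraries. Efna1, a GPI-anchored ephrin and the highest ephrin A, had 14.6, 11.5 and 14.4 CPM in the cKO libraries, against 11.4, 12.9 and 12.4 CPM in the WT libraries. Both sets of groups overlapped, with log2 fold changes of -0.11 (95% interval -0.48 to 0.25) and 0.14 (-0.17 to 0.45). The other ephrins ran from -0.48 for Efna2 to 0.74 for Efna3. Without cKO replicate 2, Efnb2, the arterial ephrin, was called at 0.42 with an adjusted p of 0.00348. These intervals do not show that ephrins were equal in the genotypes.

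Ephb6, an Eph receptor without kinase activity, was the exception among Eph receptors (ENSMUSG00000029869, chromosome 6, 41605482 to 41620509). It had 14.01, 12.3 and 11.8 CPM in the cKO libraries, against 55.5, 47.7 and 52.8 CPM in the WT libraries. The groups were far apart, and Ephb6 fell 4.09-fold (log2 fold change -2.03 ± 0.11 SE, edgeR adjusted p = 0.000253), a call that held whichever library was left out. Epha5, the EphA receptor with the highest level per kilobase over the 6 libraries, had 67.9, 39.7 and 71.6 CPM in the cKO libraries, against 79.7, 90.1 and 82.2 CPM in the WT libraries. Its cKO libraries were all lower, with replicate 2 lowest, and it was not called (log2 fold change -0.49, 95% interval -1.02 to 0.033, edgeR adjusted p = 0.167). Without replicate 2 its value was -0.27 with an adjusted p of 0.0223. Per kilobase, Epha5 averaged 3.57 CPM in cKO and 5.02 CPM in WT nerves, and Epha2 2.88 CPM in cKO and 5.16 CPM in WT nerves. Ephb4, the venous receptor of Efnb2, had 59.3, 54.5 and 59.4 CPM in the cKO libraries, against 67.96, 62.4 and 62.7 CPM in the WT libraries. The gap between its groups was small (log2 fold change -0.16, 95% interval -0.35 to 0.035, edgeR adjusted p = 0.216).

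Ephb2, known in injured rat nerve for the sorting of Schwann cells by fibroblasts, had 50.1, 45.5 and 69.4 CPM in the cKO libraries, against 72.9, 62.05 and 52.4 CPM in the WT libraries. Its groups overlapped (log2 fold change -0.18, 95% interval -0.63 to 0.27, edgeR adjusted p = 0.522). Epha7 lay just outside the threshold at 0.57 (edgeR adjusted p = 0.0562), with all cKO libraries above WT. Epha2 was at -0.84 (edgeR adjusted p = 0.0812), with all cKO libraries below WT. Without cKO replicate 2 the values were 0.72 with an adjusted p of 0.000283 for Epha7 and -0.57 with an adjusted p of 0.00167 for Epha2. The remaining tested Eph receptors ran from -0.65 for Epha6 to 0.78 for Epha3. Summed Eph receptors were 41.1 ± 3.83 CPM per kilobase in cKO and 55.9 ± 1.90 in WT nerves (SD, n = 3 each). Most of that difference was Ephb6, at 3.37 CPM per kilobase in cKO and 13.8 in WT nerves. EphA receptors alone summed to 15.3 ± 1.64 CPM per kilobase in cKO and 16.8 ± 0.398 in WT nerves (SD, n = 3 each), and their groups overlapped.

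**Figure D4:**
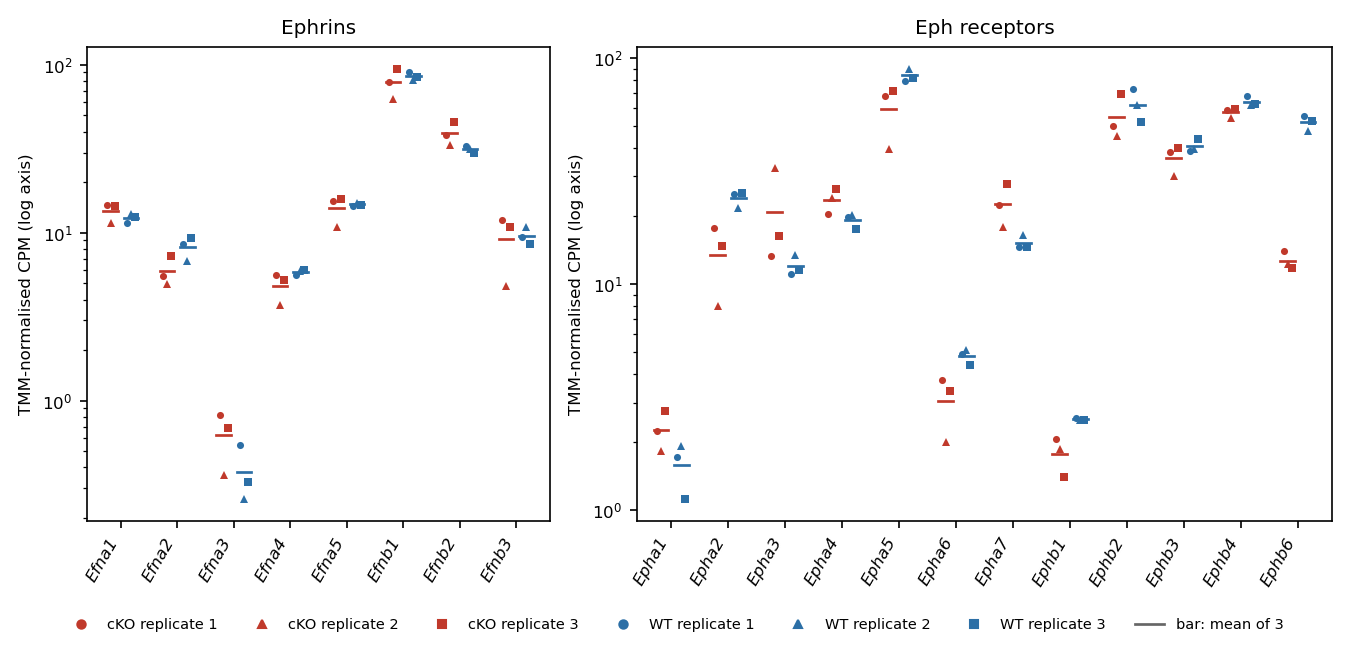
TMM-normalised CPM (log axis) of the tested ephrins (left) and Eph receptors (right) in each library, with bars at the mean of 3 cKO and of 3 WT libraries. Ephb6 stands apart at 12.7 CPM in cKO and 52.01 CPM in WT nerves. Groups overlap for 6 of 8 ephrins, and over all genes tested 42.7% had groups that did not overlap.

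Slits, secreted repellents of roundabout receptors, were not called by edgeR. Slit2 was the 1 slit at an unadjusted p under 0.05 and was called by DESeq2. Slit3, the highest per kilobase over the 6 libraries, had 19.8, 12.7 and 31.1 CPM in the cKO libraries, against 24.8, 21.7 and 21.9 CPM in the WT libraries, and its groups overlapped (log2 fold change -0.10, 95% interval -0.84 to 0.64, edgeR adjusted p = 0.837). Slit2 had 129, 52.5 and 86.5 CPM in the cKO libraries, against 52.7, 47.6 and 46.1 CPM in the WT libraries. Its cKO replicate 2 lay below the highest WT library, and it was not called (log2 fold change 0.87, 95% interval 0.11 to 1.63, edgeR adjusted p = 0.108). Without cKO replicate 2 the value was 1.14 with an adjusted p of 0.00249. In cKO nerves Slit2 and Slit3 were about level per kilobase, at 3.51 and 3.49 CPM. Slit1 was at 0.87 and was not called, and was at -0.12 without cKO replicate 2.

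Robo2, a slit receptor, rose. It had 10.8, 13.5 and 11.1 CPM in the cKO libraries, against 7.34, 6.60 and 6.68 CPM in the WT libraries, with all cKO libraries above WT (log2 fold change 0.78 ± 0.14 SE, edgeR adjusted p = 0.0102). The call was lost without WT replicate 2 or 3. Robo1, another slit receptor, had 8.17, 20.2 and 11.1 CPM in the cKO libraries, against 6.17, 6.69 and 5.34 CPM in the WT libraries. Its groups did not overlap, with cKO replicate 2 highest, and it was not called (log2 fold change 1.11, 95% interval 0.32 to 1.91, edgeR adjusted p = 0.0623). Without that library the value was 0.67 with an adjusted p of 0.00533.

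Netrins differed by member. Ntn4, a netrin of basement membranes that binds laminins, had 8.17, 9.65 and 8.23 CPM in the cKO libraries, against 5.78, 5.99 and 6.16 CPM in the WT libraries. Every cKO library was above WT (log2 fold change 0.54 ± 0.13 SE, edgeR adjusted p = 0.0304), and leaving out cKO replicate 3 or any WT library ended the call. Ntn1, the classical Dcc ligand and highest per kilobase, had 146, 109 and 173 CPM in the cKO libraries, against 115, 115 and 103 CPM in the WT libraries. Its groups overlapped through cKO replicate 2 (log2 fold change 0.36, 95% interval -0.033 to 0.76, edgeR adjusted p = 0.175), and without it the value was 0.52 with an adjusted p of 0.000442. Ntn3 was at -0.39 and was not called.

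Ntn5 and Unc5d were called at very low levels, and are named because they were called, after their values were seen. Ntn5 had 0.365, 0.646 and 0.40 CPM in the cKO libraries, against 1.504, 1.18 and 1.26 CPM in the WT libraries, with no overlap (log2 fold change -1.49 ± 0.29 SE, edgeR adjusted p = 0.0156). Of its exonic bases 23.4% overlap Sec1 on the opposite strand and 18.5% of its 50-base words occur in another gene, so its count is uncertain, and dropping cKO replicate 3 or a WT library ended the call. Unc5d, a repulsive netrin receptor that also binds Flrt2, had 1.003, 0.502 and 0.914 CPM in the cKO libraries, against 0.150, 0.115 and 0.164 CPM in the WT libraries. Its raw counts were 33, 14 and 32 in cKO and 5, 4 and 6 in WT libraries, and it passed the low-count filter through the cKO group. The log2 fold change was 2.47 ± 0.39 SE (edgeR adjusted p = 0.00743) and the call held whichever library was left out. Because Unc5d entered the test through the group where it is high, neither result is separate support for a rise. Neuron markers summed to 99.4 to 180.4 CPM in cKO and 87.3 to 90.5 CPM in WT libraries, and their part in the Unc5d values was not tested.

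Unc5b, the highest netrin receptor per kilobase and known from endothelium, had 10.6, 13.2 and 12.8 CPM in the cKO libraries, against 12.7, 10.1 and 9.50 CPM in the WT libraries, with overlapping groups (log2 fold change 0.18, 95% interval -0.19 to 0.55, edgeR adjusted p = 0.446). Unc5a and Unc5c were at 0.43 and -0.74 and were not called. Dcc was not tested, with counts of 2, 3 and 3 in cKO and 1, 6 and 5 in WT libraries. Robo3, Epha8, Epha10, Plxna4os2 and Plxna4os3 were also not tested. Among them Robo3 had counts of 7, 3 and 6 in cKO and 6, 4 and 1 in WT libraries, and Plxna4os3 had none.

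Other genes of these pathways were taken from 4 lists that hold no members. Of 85 tested, 11 rose and 17 fell (32.9% called, beside 18.8% of all genes). In the semaphorin and neuropilin list 3 of 28 rose and 8 fell. Rras, a GTPase inactivated by plexins, averaged 80.1 CPM in cKO and 51.5 CPM in WT nerves (log2 fold change 0.64 ± 0.095 SE, edgeR adjusted p = 0.00618), and Dpysl3, a collapsin response mediator, 199 CPM in cKO and 119 CPM in WT nerves (log2 fold change 0.74 ± 0.12 SE, edgeR adjusted p = 0.00906). Erbb2, a neuregulin co-receptor that associates with B plexins, averaged 42.7 CPM in cKO and 76.7 CPM in WT nerves (log2 fold change -0.84 ± 0.11 SE, edgeR adjusted p = 0.00365). Fyn, a Src family kinase, averaged 143 CPM in cKO and 268 CPM in WT nerves (log2 fold change -0.91 ± 0.12 SE, edgeR adjusted p = 0.00402). In the ephrin and Eph list 2 of 21 tested rose and 3 fell. Nck1, an adaptor, averaged 56.01 CPM in cKO and 38.02 CPM in WT nerves (log2 fold change 0.56 ± 0.081 SE, edgeR adjusted p = 0.00549), and Vav3, an exchange factor, 12.3 CPM in cKO and 6.52 CPM in WT nerves (log2 fold change 0.91 ± 0.22 SE, edgeR adjusted p = 0.032). Adam10, a protease that cleaves ephrins, averaged 192 CPM in cKO and 416 CPM in WT nerves (log2 fold change -1.12 ± 0.12 SE, edgeR adjusted p = 0.00211). Tiam1, a Rac exchange factor, averaged 30.8 CPM in cKO and 70.8 CPM in WT nerves (log2 fold change -1.20 ± 0.18 SE, edgeR adjusted p = 0.00683).

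In the Slit and Robo list 3 of 18 rose and 3 fell. Hs6st1, a heparan sulphate sulfotransferase, averaged 55.7 CPM in cKO and 30.5 CPM in WT nerves (log2 fold change 0.87 ± 0.11 SE, edgeR adjusted p = 0.00312), and Ext1, which elongates heparan sulphate, 84.3 CPM in cKO and 64.7 CPM in WT nerves (log2 fold change 0.38 ± 0.092 SE, edgeR adjusted p = 0.0306). Nell2, a secreted ligand of Robo3, averaged 1.37 CPM in cKO and 5.89 CPM in WT nerves (log2 fold change -2.11 ± 0.25 SE, edgeR adjusted p = 0.00265). Srgap1, a GTPase activating protein bound by roundabouts, averaged 51.3 CPM in cKO and 112 CPM in WT nerves (log2 fold change -1.13 ± 0.13 SE, edgeR adjusted p = 0.00271). In the netrin list 3 of 19 tested rose and 3 fell. Trim9, a ubiquitin ligase that binds Dcc, averaged 2.83 CPM in cKO and 0.605 CPM in WT nerves (log2 fold change 2.22 ± 0.31 SE, edgeR adjusted p = 0.00514). Flrt2, an Unc5 ligand, averaged 49.7 CPM in cKO and 31.01 CPM in WT nerves (log2 fold change 0.68 ± 0.098 SE, edgeR adjusted p = 0.00548). Lrrc4, a netrin-G ligand, averaged 4.50 CPM in cKO and 10.4 CPM in WT nerves (log2 fold change -1.21 ± 0.12 SE, edgeR adjusted p = 0.00173), and its relative Lrrc4b 6.71 CPM in cKO and 17.1 CPM in WT nerves (log2 fold change -1.35 ± 0.27 SE, edgeR adjusted p = 0.018). Leaving out any WT library ended the calls of Dpysl3, Vav3, Ext1 and Lrrc4b, as did leaving out cKO replicate 3 for Vav3 and Ext1 and cKO replicate 1 for Lrrc4b.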

How the data were processed

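RNA of 6 mouse sciatic nerve libraries was sequenced. The authors deposited raw counts of fragments per gene. Per the file headers, featureCounts 1.6.1 counted exons of Ensembl GRCm38 release 95 with a minimum mapping quality of 20 and without strand. Subread 2.0 and DESeq2 1.3 are listed in the submitters' processing notes. The deposited table also gives exonic length, another value per gene. Symbols were matched for 54723 identifiers and not for 115. Testing used edgeR 4.0.16 in R 4.3.3 (filterByExpr minimum count 10, TMM, robust quasi-likelihood F test, 2-sided, 4 residual degrees of freedom), with Benjamini-Hochberg adjustment over 18775 genes. The fit was also run on simulated data drawn without an outlying library, so that run does not cover a library such as cKO replicate 2. Replicates were distinct beyond counting noise, with a chi-square over its degrees of freedom of 28.8 to 312 between cKO and 8.26 to 14.9 between WT libraries. The members and lists were chosen with earlier results of these data known. Named members were those called whose mean log2 CPM reached 0 or more and the highest per kilobase of each family over the 6 libraries, and, of each pathway list, up to 2 called genes with the smallest p in each direction. Plxnb1, Epha7 and Sema3a are given because they fell just outside the threshold. Sema3f, Sema4d, Nrp1, Plxnb2, Epha2, Ephb2, Slit2, Ntn5 and Unc5d are outside this rule and were chosen for per-library or single values after their values were seen. Alternatives were DESeq2 1.42.0, RLE factors, no low-count filter, a replicate block and leaving out each library.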

Additional observations from a re-analysis of the deposited data

How the results depend on the processing

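All 20 called members kept their direction in every alternative. DESeq2 and RLE factors kept 20 of the calls, and no low-count filter kept 18, without Ntn4 and Sema3g. DESeq2 called 14 members higher and 14 lower, beside 2254 genes higher and 2353 lower over all genes. Leaving out 1 library in turn, 3 to 17 members were called higher and 7 to 18 lower, all genes called higher ran from 469 to 3360 and lower from 784 to 3345, and pathway genes from 5 to 20 higher and 8 to 23 lower. The most calls came without cKO replicate 2, and 10 of the 20 calls held in every such fit, Unc5d among them. Actl6a stayed between -0.23 and -0.13 on the log2 scale. Uncalled members whose fold change changed sign ranged, over these fits on the log2 scale, from -0.24 to 1.07 for Sema4d, from -0.021 to 0.22 for Sema6a, from -0.12 to 0.024 for Plxna1, from -0.16 to 0.088 for Efna5, from -0.27 to 0.028 for Efnb1, from -0.29 to 0.25 for Efnb3, from -0.12 to 1.29 for Slit1, from -0.49 to 0.16 for Slit3 and from -0.092 to 0.65 for Unc5a. The cause was not tested. Same-numbered libraries did not deviate together (r = -0.22, -0.23 and -0.08), so the numbers were not taken to pair them, and no library correlated best with its own number. With a replicate block, 5 members were called higher and 11 lower, 744 genes higher and 1108 lower, and 6 pathway genes higher, and 13 of the 20 calls were kept.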

Other observations

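The 4 class 3 semaphorin genes of chromosome 5 lie within 5.35 Mb (GRCm38, 12383385 to 17730268), a window chosen after the values were seen. Sema3d, Sema3a, Sema3e and Sema3c each had all 3 cKO libraries above all 3 WT libraries, and 3 of the 4 were called higher. Over all genes tested, groups did not overlap in either direction for 42.7%, and 8.55% were called higher. Of the 5 other genes tested in the window, 0 were called by edgeR or by DESeq2, and 2 (Gm43719 and Pclo) had an unadjusted p under 0.05 in edgeR. The log2 fold changes of the 5 were 1.48 for Gm43719, 1.29 for the calcium channel subunit gene Cacna2d1, 0.64 for Gm10108, 0.44 for the growth factor gene Hgf and -1.20 for Pclo, a presynaptic scaffold. The groups of Gm43719 did not overlap (higher in cKO), nor did those of Pclo (lower in cKO). On chromosome 9, Sema3b and Sema3f lie 72.3 kb apart, and Sema3b was called lower and Sema3f was not called.

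In cKO replicate 2, 9 tested members were more than 1.5 times above both other cKO libraries (13.8%, against 12.5% of all genes), among them Sema3a, Sema4d, Plxna2, Epha3 and Robo1. A further 13 were as far below both (20%, against 8.79% of all genes), among them Sema3g, Plxnb3, Epha2, Epha5 and Slit2. The same library had the high skeletal muscle marker sum, and the part of muscle in these values was not tested.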
